A study of Mus musculus with 3 samples.

Results

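The peaks described here were called in a CUT&Tag library made without a primary antibody and shared no base with any peak of the MEIS2 libraries. They were all peaks of the no-antibody list on chromosomes 1 to 19 for which neither MEIS2 list held an overlapping peak. Of 8670 no-antibody peaks on those chromosomes, 3190 met the rule, which is 36.8% (95% Wilson interval 35.8 to 37.8%), and they covered 1042 kb. The remaining 5480 overlapped a MEIS2 peak, 4039 of them in both MEIS2 lists, 239 in the replicate 1 list alone and 1202 in the replicate 2 list alone, and they covered 2156 kb. All 3 libraries together listed 170729 peaks.

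The no-antibody library and the 2 MEIS2 libraries were made from 100000 cells each of the lateral ganglionic eminence (LGE), dissected at E14.5 from wild-type mouse embryos of the CD1 strain. The MEIS2 libraries were made with a mouse polyclonal antibody against MEIS2. The labels name no allele or agent that differs between the groups, and nothing says whether the MEIS2 libraries came from separate litters. The LGE is a ventral swelling of the embryonic forebrain that gives rise to striatal projection neurons, and MEIS2 belongs to the TALE group of homeobox transcription factors. As the no-antibody group is 1 library, no test between groups was possible. The intervals below cover counting error only.

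In CUT&Tag an antibody bound to its target tethers a protein A fusion of Tn5 transposase, which cuts nearby DNA and inserts sequencing adapters. A library without the primary antibody keeps the transposase and leaves out the tether, so its reads come from untethered cutting and from whatever else reaches the library. Such reads are known to favour open chromatin, and repeated or collapsed stretches of an assembly can gather reads from many copies. Peaks of such a library serve as a record of where reads pile up without the targeted protein.

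Sequencing had been deep, but after the peak caller kept at most 1 tag per position the no-antibody library had 6337375 of 72763762 tags. The MEIS2 libraries kept 7618406 of 74259592 and 6559629 of 79760948 tags. The no-antibody list held 9938 peaks in all, against 78375 and 82416 in the MEIS2 lists. The caller set the smallest width from the fragment length it estimated, 233 bp in the no-antibody library against 172 and 162 bp in the MEIS2 libraries. Widths were therefore not compared between libraries.

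Only 4 of the 3079 no-antibody-only peaks on chromosomes with annotated start sites touched the 250 bases before a RefSeq transcription start, 0.130% (0.0505 to 0.334%). Among no-antibody peaks that overlapped MEIS2, 13 of 5281 did (0.246%), and among MEIS2 peaks found in both replicates and clear of the no-antibody list, 8359 of 43192 did (19.4%). The upstream sequences at these 4 exceptions are printed because they are where a peak without antibody met a promoter, from RefSeq on GRCm38.p6, 5′ to 3′ on the gene's strand and ending at the base before the start, with the bases under the peak in capitals.
Gm46264, chr11:117463707-117463956, minus strand: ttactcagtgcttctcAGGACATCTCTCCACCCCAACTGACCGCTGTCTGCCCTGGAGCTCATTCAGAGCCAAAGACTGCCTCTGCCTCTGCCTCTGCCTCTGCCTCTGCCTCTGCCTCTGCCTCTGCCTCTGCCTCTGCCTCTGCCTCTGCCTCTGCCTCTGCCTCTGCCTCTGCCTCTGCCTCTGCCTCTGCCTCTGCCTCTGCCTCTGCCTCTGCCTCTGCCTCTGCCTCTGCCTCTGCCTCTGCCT
Gm46425, chr13:65950339-65950588, plus strand: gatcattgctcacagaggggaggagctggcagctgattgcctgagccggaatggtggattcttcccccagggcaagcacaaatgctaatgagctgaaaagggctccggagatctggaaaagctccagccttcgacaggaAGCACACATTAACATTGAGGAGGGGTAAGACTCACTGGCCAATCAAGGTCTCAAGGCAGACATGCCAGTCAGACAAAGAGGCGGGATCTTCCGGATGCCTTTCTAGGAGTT
Mup17, chr4:61595833-61596082, minus strand: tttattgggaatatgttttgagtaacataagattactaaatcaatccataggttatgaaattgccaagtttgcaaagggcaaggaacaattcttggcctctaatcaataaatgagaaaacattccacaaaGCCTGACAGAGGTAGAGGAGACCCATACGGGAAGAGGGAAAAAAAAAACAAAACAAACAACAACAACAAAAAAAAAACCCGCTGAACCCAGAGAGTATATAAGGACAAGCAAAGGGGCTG
Gm51573, chr8:55372243-55372492, plus strand: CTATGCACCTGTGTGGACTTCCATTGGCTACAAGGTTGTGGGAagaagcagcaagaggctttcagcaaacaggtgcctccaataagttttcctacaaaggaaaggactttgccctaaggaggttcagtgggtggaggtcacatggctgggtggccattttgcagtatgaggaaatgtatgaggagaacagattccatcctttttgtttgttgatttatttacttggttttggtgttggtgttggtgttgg

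The 4 sequences had little in common. The window of Gm46264, a long noncoding RNA gene, lay under its peak for 234 of 250 bases and ended in a tandem run of 174 bp of the unit ctgcct. Runs of at least 100 bp, counting units up to 6 bp, were present in 0.035% of the 31396 promoter windows. Its GC content was 62.8%, against a median of 52.4% over all windows, and the peak there had a pileup of 11 tags. The peak at Gm46425 also reached the upstream windows of 2 start sites of Gm32476, a long noncoding RNA gene on the other strand, and likewise had a pileup of 11 tags. Mup17 encodes a major urinary protein, a lipocalin that carries pheromones. Its window was the one of lowest GC content, 37.2%, and its peak had a pileup of 6 tags, the lowest value in the list. The Mup17 window also held TGACAG, the hexamer known to be bound by MEIS proteins, which was absent on both strands from the other windows shown and present on either strand in 15.7% of all promoter windows. The Gm51573 window was reached by the peak for 43 bases.

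The deposited pileup, a count of the extended tags that cover a summit, was low in the no-antibody-only peaks. Its median was 11 tags, with quartiles of 9 and 13 and a range of 6 to 45, against a median of 14 tags, quartiles of 11 and 18 and a maximum of 430 in no-antibody peaks that overlapped MEIS2. A pileup of at least 20 tags was reached by 50 peaks (1.57%), against 956 overlapping peaks (17.4%). The peaks also were narrower, with a median width of 288 bp and a maximum of 991 bp, against 343 bp and 4478 bp. At the smallest width the caller allows stood 22.8% of them (21.4 to 24.3%) and 11.2% of the overlapping peaks (10.4 to 12.1%). The −log10 q-value had a median of 4.16 in the no-antibody-only peaks and 5.17 in the overlapping peaks, and reached 5 in 31.1% and 52.7% of them.

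**Figure D1:**
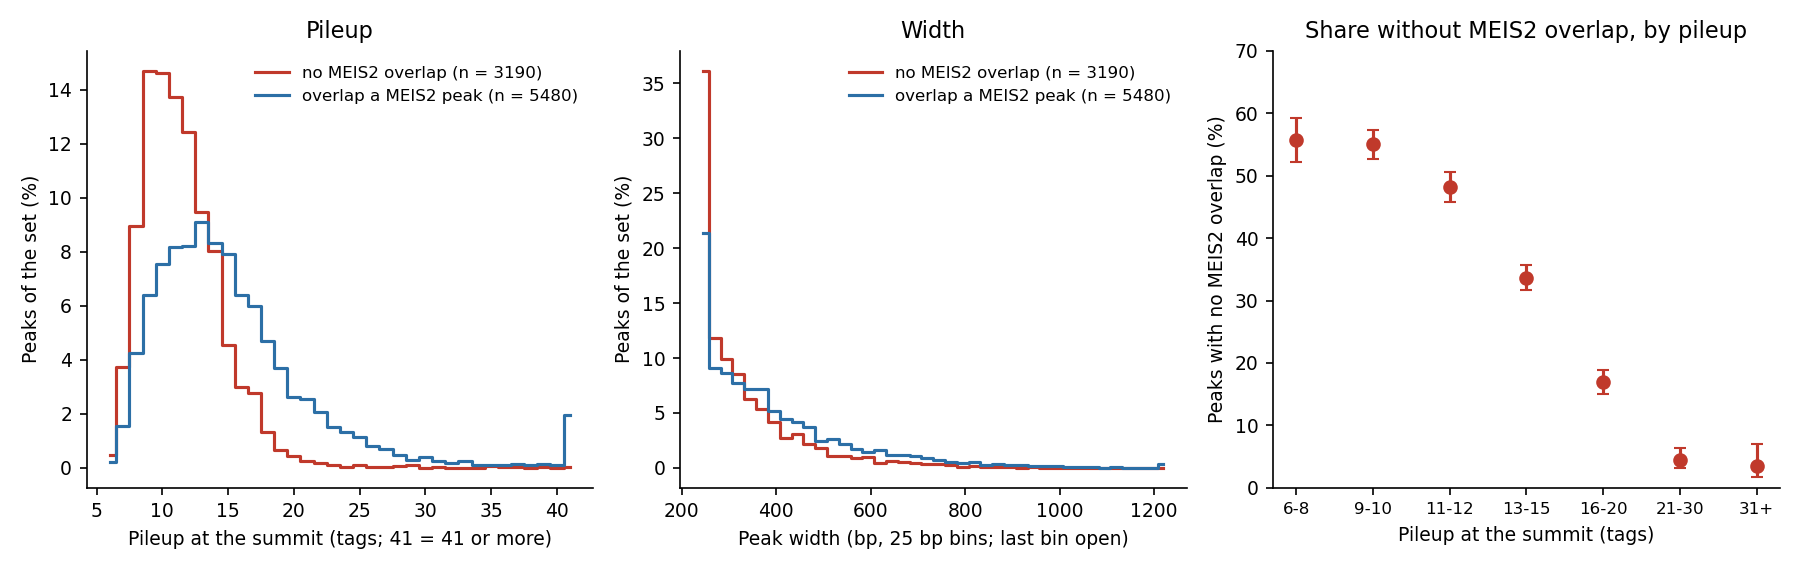
Pileup at the summit (tags) and width (bp) of no-antibody peaks, as a percentage of each set, and the share of no-antibody peaks without MEIS2 overlap in each pileup band with 95% Wilson intervals. The set without MEIS2 overlap lies at lower pileup and smaller width, and its share drops to 3.5% among peaks with a pileup of 31 or more.

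Read the other way, the share of the no-antibody list without a MEIS2 partner depended on pileup. It was 55.8% for pileups of 6 to 8 tags, 55.0% for 9 to 10, 48.2% for 11 to 12, 33.6% for 13 to 15, 16.9% for 16 to 20 and 4.48% for 21 to 30. Above 30 tags, 7 of 200 peaks had no MEIS2 partner. By width, the share was 54.2% at the smallest width and 17.3% above 600 bp. A wider peak has more bases that can meet a MEIS2 peak, so the rule itself favours narrow peaks. How much of the width differences follows from that was not tested.

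The median fold enrichment separated the sets far less than the median pileup did. The deposited fold divides the pileup by the level expected there locally, after adding 1 to both, and its median was 5.03 in the no-antibody-only peaks (range 2.75 to 19.4) and 5.19 in the overlapping peaks (maximum 31.8). The locally expected pileup that this ratio implies had a median of 1.21 tags in the no-antibody-only peaks and 2.05 tags in the overlapping peaks, with maxima of 12.1 and 106 tags. It stood at the library's mean, the floor the caller uses, for 18.6% of the no-antibody-only peaks and 11.1% of the overlapping peaks. So the overlapping peaks had taller summits over a higher locally expected level, and the median ratio came out alike. As no control was used, that level comes from the same library over 10000 bp. A peak's own tags can therefore enter it, and it is not a level of the surroundings alone. The share without a MEIS2 partner was 49.3% at the floor and 10.7% where the locally expected pileup was 4 tags or more. By fold, the share was 42.3% below 4, 33.6% from 6 to 7, 21.2% from 8 to 10 and 10.7% at 10 or more. No-antibody peaks that overlapped the replicate 2 list alone had a median pileup of 11 tags and a median locally expected pileup of 1.05 tags, close to the no-antibody-only peaks. Their median fold of 5.56 was above that of both sets. Their median width of 328 bp, and the 46.4% with a −log10 q of at least 5, were nearer to the overlapping peaks.

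**Figure D2:**
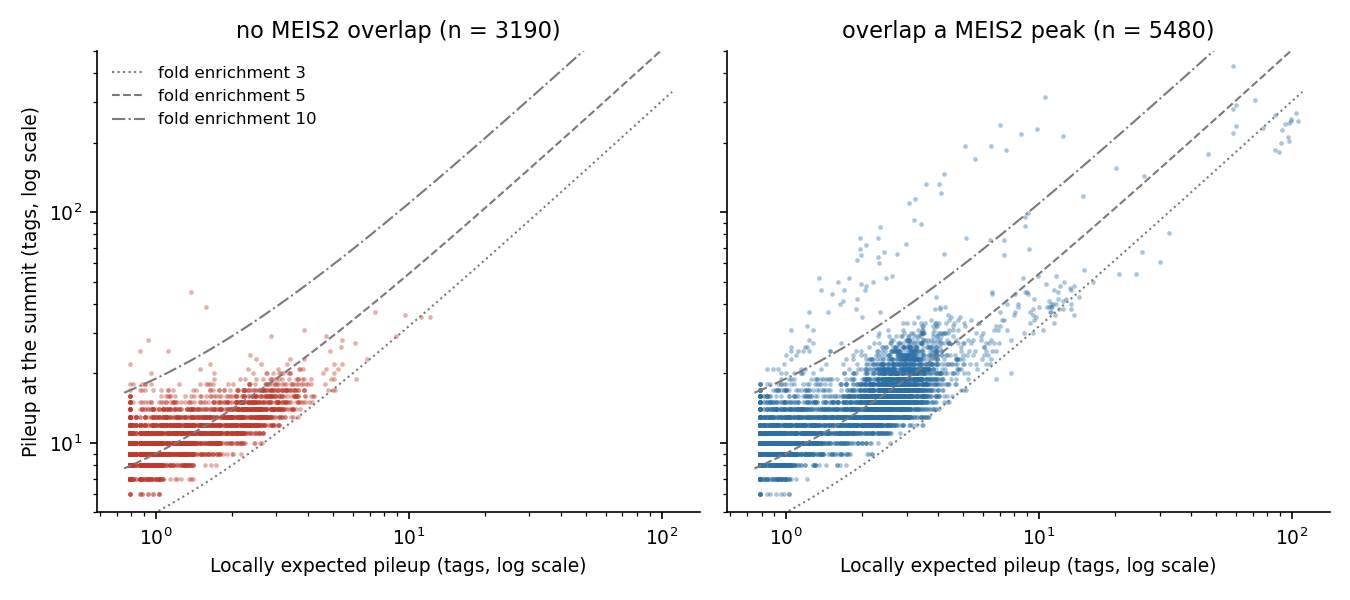
Pileup at the summit against the locally expected pileup (tags, both log scales) for each no-antibody peak, without MEIS2 overlap on the left and with it on the right, with lines of equal fold enrichment. Peaks without MEIS2 overlap end at a pileup of 45 and a locally expected pileup of 12.1 tags, while overlapping peaks reach 430 and 106 tags.

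A fold enrichment of at least 10 was reached by 11 no-antibody-only peaks (0.345%), against 92 overlapping peaks (1.68%). The strongest, chr5:60042784-60043186, had a pileup of 45 tags over a locally expected 1.37 and a fold of 19.4. It lay outside every gene, 1766 kb from G6pd2, the nearest protein-coding gene, and 86.4 kb from the nearest MEIS2 peak. The next, chr17:13654536-13655151, had a pileup of 39 tags and a fold of 15.5, and lay 61.7 kb from Tcte2, a gene of the t-complex. The third, chr18:40308035-40308396, had a pileup of 28 tags and a fold of 15.01 inside Kctd16, which encodes an auxiliary subunit of GABA-B receptors. All 3 lay at least 9982 bp from any MEIS2 peak.

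The other high-fold peaks were likewise clear of MEIS2 peaks. Near Abcb11, the bile salt export pump gene, chr2:69355416-69355805 had a pileup of 25 tags and a fold of 14.0, at 12984 bp from the gene. Peaks 124.7 kb from Mex3c on chromosome 18, 23.5 kb from Emp1 on chromosome 6 and 260.3 kb from Epha3 on chromosome 16, their nearest protein-coding genes, had folds of 12.9, 12.3 and 10.7 with pileups of 22, 25 and 20 tags. A peak in the long noncoding RNA gene Gm34259 on chromosome 17, one 107.0 kb from Hsfy2 on chromosome 1 and one in the long noncoding RNA gene Gm32624 on chromosome 16 had folds of 10.6, 10.5 and 10.1, each with a pileup of 18 tags. Among these 10 peaks of highest fold, the gap to the nearest MEIS2 peak was between 2.79 kb (the Abcb11 peak) and 126.7 kb (in Gm34259).

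Ranked by pileup, a different kind of site appeared beside the first pair. On chromosome 8, 3 peaks had pileups of 35, 35 and 36 tags but folds of only 2.75, 2.97 and 3.47, because the locally expected pileups were 12.1, 11.1 and 9.67 tags. In that order, they lay 531 bp from Gm51572, 13957 bp from Gm51591 and 317 bp from Gm51573, the nearest protein-coding genes, all of them predicted. The nearest MEIS2 peaks of replicate 1 there had pileups of 103, 90 and 108 tags, at 660, 1489 and 620 bp. Those of replicate 2 had 42, 60 and 87 tags, at 292, 1569 and 552 bp.

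Similar values were found in Snhg14, the long noncoding transcript of the imprinted Prader-Willi and Angelman region, where peaks of 29 and 31 tags had folds of 3.04 and 6.57. Another was chr17:13586323-13586558, with 37 tags, a fold of 4.56 and a locally expected 7.34 tags. The pseudogene Pisd-ps1 on chromosome 11 held a peak of 29 tags and a fold of 5.24 at 294 bp from a MEIS2 peak. The predicted gene Gm3629 on chromosome 14 held one of 29 tags and a fold of 7.76 at 6.87 kb. The others among the 10 peaks of highest locally expected pileup had 5.43 to 6.83 tags. They were in the Speer region of chromosome 5, within Gm21149, Speer4c and 4930572O03Rik and outside genes near Gm17019, and in Gm21093 on chromosome 4. In all, 32 no-antibody-only peaks had a locally expected pileup of 4 tags or more, and most of those are not described here. Speer genes form a multicopy family expressed in testis. Whether multicopy sequence bears on these pileups was not tested.

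The widest peaks were not strong ones. The widest measured 991 bp in the long noncoding RNA gene Gm35419 on chromosome 14, with a pileup of 11 tags and a fold of 5.43. The next 4, of 959, 956, 955 and 930 bp, lay in Rgs7, a regulator of G protein signalling, in Gm46020, and outside protein-coding genes nearest to Tox3 and Rnf145, with pileups of 9 to 11 tags.

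Gene ends were sparsely covered. A summit lay within 1 kb of either end of a RefSeq gene for 68 no-antibody-only peaks, 2.13% (1.69 to 2.69%), against 2.61% of overlapping no-antibody peaks (2.22 to 3.07%), 29.4% of the 44673 MEIS2 peaks found in both replicates and clear of the no-antibody list, and 6.31% of the bases of chromosomes 1 to 19. For ends of protein-coding genes the share was 0.502% (0.309 to 0.813%), against 0.602% of overlapping peaks, 24.2% of those MEIS2 peaks and 3.06% of bases. On the 18 chromosomes with annotated start sites, 15 of 3079 summits (0.487%) lay within 1 kb of one, against 0.568% of overlapping peaks, 22.9% of MEIS2 peaks and 2.26% of bases. Both kinds of no-antibody peak were thus below the share of bases at gene starts and ends, and their intervals overlapped.

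**Figure D3:**
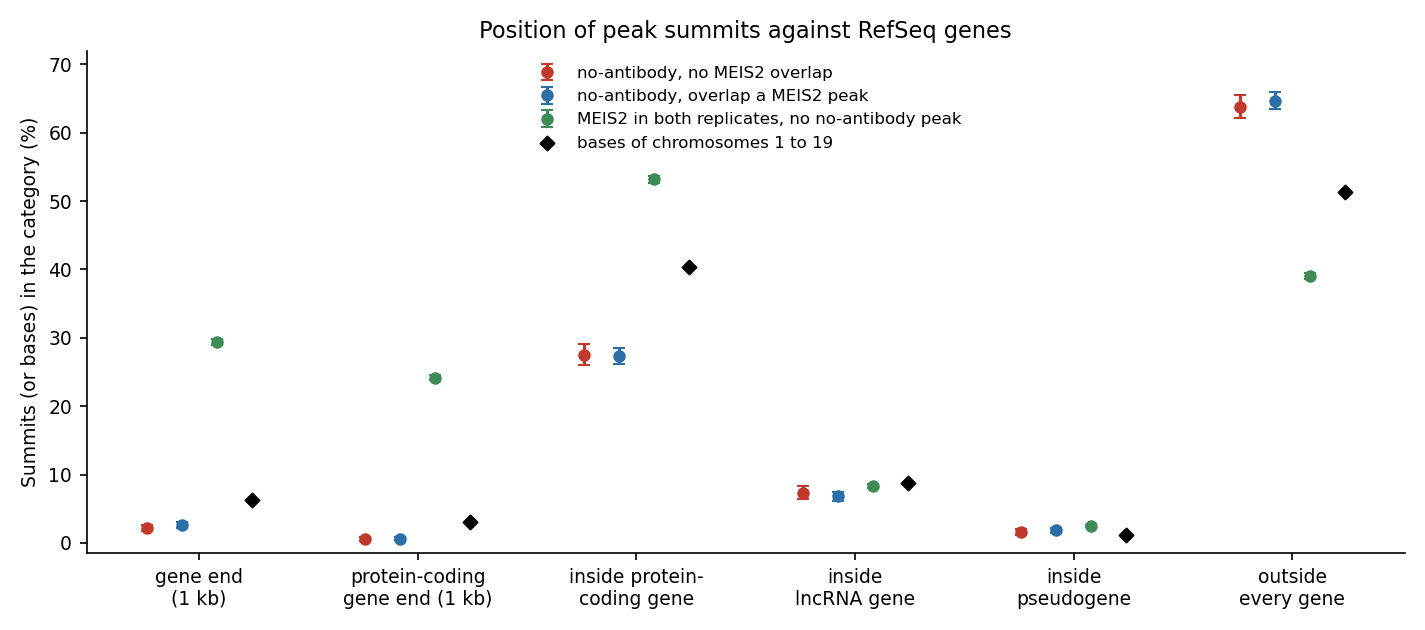
Percentage of summits at gene ends, inside gene classes and outside every gene, with 95% Wilson intervals, for no-antibody peaks without and with MEIS2 overlap and for MEIS2 peaks of both replicates clear of the no-antibody list, and the percentage of bases of chromosomes 1 to 19. Both no-antibody sets lie close together in every category, with 63.8% and 64.7% of summits outside genes, against 39.1% of the MEIS2 peaks.

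Most of the peaks were intergenic. Outside every gene lay 2036 summits, 63.8% (62.1 to 65.5%), against 64.7% of overlapping peaks, 39.1% of the MEIS2 peaks and 51.3% of bases. Inside protein-coding genes lay 27.5%, against 27.4% of overlapping peaks, 53.2% of the MEIS2 peaks and 40.3% of bases. Long noncoding RNA genes held 7.30%, against 6.81% of overlapping peaks and 8.78% of bases. Pseudogenes held 1.57% (1.19 to 2.06%), against 1.82% of overlapping peaks and 1.15% of bases. The median distance to the nearest protein-coding gene end was 84526 bp, against 81275 bp for overlapping peaks. More than 100 kb from such an end lay 46.8% of the no-antibody-only peaks, 45.7% of overlapping peaks and 20.9% of the MEIS2 peaks. No hairpin or other gene of the miRNA, snoRNA, snRNA or tRNA classes was overlapped by a no-antibody-only peak. The classes list 1136, 1286, 931 and 391 genes in that order. Overlapping no-antibody peaks gave a count of 1, for snoRNA genes. These genes are short, and the share of bases they hold was not computed. The low counts are thus no sign of avoidance.

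Position did not vary much with pileup below 21 tags, where 1.497 to 2.68% of summits lay at gene ends, depending on the band. Among the 36 no-antibody-only peaks of 21 tags or more, 13.9% did (6.08 to 28.7%). All of those were the chromosome 8 and Snhg14 peaks named above, which the interval counts as separate. Among overlapping peaks of 21 tags or more, 5.05% did (3.74 to 6.78%).

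The ends of 16 of 20665 protein-coding genes, 0.0774%, had a no-antibody-only summit within 1 kb. The genes were Fcrl6, Impg2, 4931408C20Rik, Olfr1031, Gm3012, Olfr196, Gm46425, Cst10, Nrn1, Gm5795, Car13, 4930467E23Rik, Mup17, Gm51573, Gm3636 and Gm51572, in falling order of fold from 7.26 to 2.75. Several have tissue-restricted roles outside the brain: Fcrl6 is an Fc receptor-like gene of lymphocytes, Impg2 encodes a proteoglycan of the photoreceptor matrix, and Olfr1031 and Olfr196 are odorant receptors. Nrn1 encodes neuritin, which promotes neurite growth, and its peak had a pileup of 9 tags and a fold of 4.88, at 1.11 kb from a MEIS2 peak of 8 tags in replicate 1. At Olfr196 the peak of 16 tags stood 5.16 kb from a MEIS2 peak of 91 tags in replicate 1, and the nearest replicate 2 peak had 26 tags.

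Meis2, Dlx1, Dlx2, Dlx5 and Dlx6, homeobox genes of the LGE, were looked up whatever their values. No no-antibody peak of either kind lay in them or within 50 kb. The nearest no-antibody-only peaks stood 551.8 kb from Meis2, 356.2 kb from Dlx1, 371.5 kb from Dlx2, 102.0 kb from Dlx5 and 116.1 kb from Dlx6. Over all protein-coding genes, only 2306 of 20665 (11.2%) had a no-antibody-only summit inside or within 50 kb. None at these few genes, some of them neighbours, is thus no sign of depletion. Of 26 LGE regulators, 4 had such a summit (15.4%, 6.15 to 33.5%), namely Ebf1, Foxp1, Foxp2 and Pbx3. Per length of these windows, the LGE regulators had 0.643 peaks per Mb, against 1.06 per Mb for all protein-coding genes. That density rests on 4 peaks, goes the other way from the share of genes, and was not tested.

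Long genes held the most. Of 42 listed long genes, most of them known for neural adhesion or the synapse, 31 had a no-antibody-only summit inside or within 50 kb, and 81 summits lay inside them. These genes are long, with a median of 1178 kb against 17.5 kb for all protein-coding genes, and per length of window they had 1.51 peaks per Mb, against 1.06. Inside all protein-coding genes above 500 kb the density was 1.41 per Mb, and the difference between the list and other long genes was not tested. The synaptic scaffold gene Dlg2 held 6. Cntnap2, a neurexin-family adhesion gene, Lingo2, a leucine-rich repeat gene, and Ptprd, a receptor phosphatase gene, held 5 each. Cdh18, Cntn5, Epha6, Erbb4, Fhit, Immp2l and Kcnip4 held 4 each.

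In all, 700 protein-coding genes, 3.39% of those tested, held a summit. Density inside genes went with gene length, at 0.522 peaks per Mb in genes up to 10 kb, 0.506 from 10 to 50 kb, 0.673 from 50 to 100 kb, 0.972 from 100 to 500 kb and 1.41 above 500 kb. Overlapping no-antibody peaks had 0.587 per Mb in the shortest class and 2.33 per Mb in the longest. Among genes that do not encode a single protein, Snhg14 held 9 no-antibody-only summits in 1177 kb. The immunoglobulin kappa locus Igk held 7 in 3171 kb. The T cell receptor loci Tcrb and Tcra held 4 in 667 kb and 3 in 1796 kb, and the long noncoding RNA gene Gm27243 held 3 in 456 kb. Overlapping no-antibody summits in these numbered 14, 5, 2, 3 and 1 in that order.

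Several of the listed gene families had more peaks per length of window than all protein-coding genes, and others had fewer. Olfactory receptors had 1.70 per Mb (184 of 1100 genes, 16.7%), vomeronasal receptors 1.74 per Mb (56 of 354, 15.8%), defensins, which are antimicrobial peptides, 1.77 per Mb (13 of 71) and serpins, which are mostly protease inhibitors, 2.40 per Mb (14 of 62). Neighbouring genes of a family share peaks, since the 184 olfactory receptor genes were reached by 57 peaks. The Pramel, Speer and Skint families had 1.67 per Mb (8 of 66 genes) and the Cyp2, Cyp3 and Cyp4 cytochromes 1.20 per Mb (7 of 77). Below the value for all genes were zinc finger genes at 0.728 per Mb (30 of 388), lectin genes at 0.703 (6 of 62), keratins at 0.645 (4 of 53) and cytosolic ribosomal protein genes at 0.391 (3 of 76, near Rpl10l, Rpl24 and Rps12). Overlapping no-antibody peaks had 1.87 per Mb over all protein-coding genes. They had 3.22 at olfactory receptors, 3.92 at vomeronasal receptors, 2.16 at serpins and 1.32 at defensins. The Pramel, Speer and Skint families had 3.48 of them per Mb and the cytochromes 3.76. Most of these counts rest on few peaks, and none was tested.

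Across chromosomes the no-antibody-only peaks were densest on chromosome 3, with 274 peaks at 1.71 per Mb, then on chromosomes 6 and 1 at 1.58 and 1.505 per Mb. Chromosome 11 was the sparsest, with 85 peaks at 0.697 per Mb, followed by chromosomes 8 and 19 at 1.04 and 1.05 per Mb. Their share of the no-antibody list ran between 29.6% on chromosome 11 (24.6 to 35.1%) and 41.4% on chromosome 3 (37.7 to 45.2%). Over the 19 chromosomes, density had a Pearson r of −0.51 and a Spearman rho of −0.43 with protein-coding genes per Mb. For overlapping no-antibody peaks the values were −0.55 and −0.43, and for MEIS2 peaks of both replicates 0.87 and 0.92. The points share their libraries and differ in base composition, so the coefficients are descriptions.

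**Figure D4:**
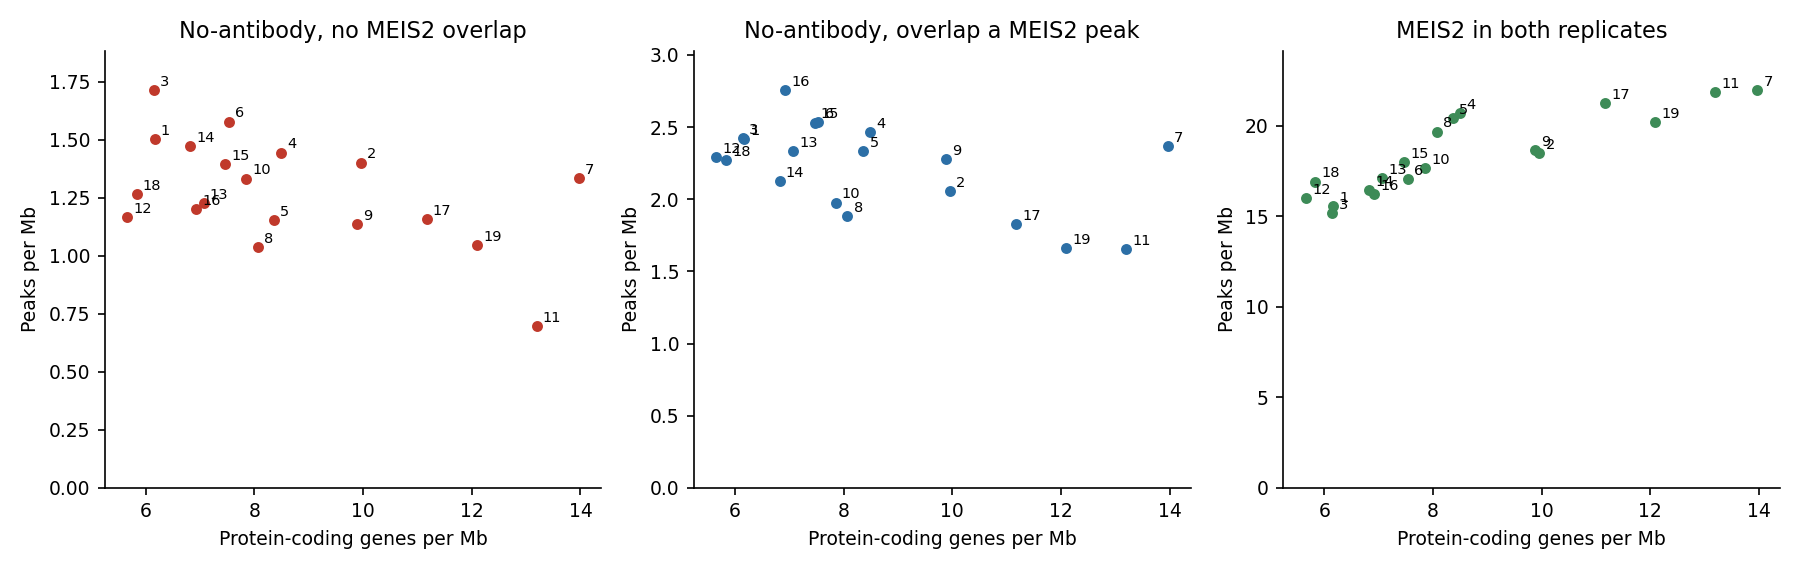
Peaks per Mb against protein-coding genes per Mb for chromosomes 1 to 19, each point labelled with its chromosome, for no-antibody peaks without MEIS2 overlap, no-antibody peaks with it, and MEIS2 peaks of both replicates clear of the no-antibody list. Chromosome 11, gene-dense, is lowest in the first panel at 0.697 per Mb and near the top of the third at 21.8 per Mb.

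The same held at smaller scale. In 294 windows of 1 Mb without a protein-coding gene the mean was 1.75 no-antibody-only peaks, and it was 1.51, 1.27, 1.01 and 0.774 in windows with 1 to 4, 5 to 9, 10 to 19 and 20 or more such genes. Overlapping peaks averaged 2.74 per window without such a gene and 1.59 in the most gene-dense windows.

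Few windows held many of the peaks. Over 2452 windows of 1 Mb the mean was 1.30 peaks and the variance 1.41 times the mean, against 1.69 times the mean for overlapping peaks, and 836 windows (34.1%) had none. The fullest window, at 15 Mb on chromosome 5, held 10 among Speer4c, Speer4d and predicted genes such as Gm21149 and Gm21190. One at 71 Mb on chromosome 3 held 9 and no protein-coding gene, and one at 38 Mb on chromosome 7, with Ccne1 and a row of predicted genes, held 8. Windows at 3 Mb on chromosome 14, with 19 pseudogenes, and at 149 Mb on chromosome 2, with Cst10 and Syndig1, held 7 each.

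The median gap between a no-antibody-only peak and its nearest neighbour of the same set was 210 kb (quartiles 76.2 and 467 kb), against 113 kb among overlapping peaks. Within 10 kb of another lay 238 peaks, 7.46% (6.60 to 8.42%), 143 of them within 1 kb (4.48%). Among overlapping peaks, which are more numerous, 14.8% lay within 10 kb of another. Whether their number alone gives that difference was not tested. The 7.46% became 1.41% among no-antibody peaks with a −log10 q of at least 5 and 16.04% with 50% reciprocal overlap. Joined at gaps up to 10 kb, 2952 peaks stood alone, 113 pairs formed, and 4 groups had 3 peaks. The groups were at chr2:99020467-99031029, at chr5:87262833-87271101 near Ugt2b37, a glucuronidation enzyme gene, at chr6:117520959-117530145, and at chr6:97137071-97138641 in Eogt, which encodes an enzyme that adds a sugar to secreted proteins. Their pileups lay between 9 and 14 tags. The next in rank were pairs on chromosome 18, at chr18:26561381-26562293 and chr18:13241500-13249349, with pileups of 12 to 16 tags. Peaks in such groups and peaks standing alone had the same median pileup of 11 tags and median widths of 296.5 and 287 bp.

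Relative to MEIS2 peaks the positions were uneven. The gap from a no-antibody-only peak to the nearest MEIS2 peak had a median of 4740 bp, quartiles of 1121 and 13745 bp and a maximum of 164070 bp. A MEIS2 peak lay within 1 kb of 730 peaks, 22.9% (21.5 to 24.4%). A replicate 1 peak lay within 1 kb of 401 of the 3190 (12.6%) and a replicate 2 peak within 1 kb of 659 (20.7%). When the set was drawn again without a MEIS2 library, the share was 21.7% without replicate 1 and 11.1% without replicate 2. Measured at the summit, 20.2% (18.8 to 21.6%) lay within 1 kb of a MEIS2 peak, against 7.65% of the bases outside MEIS2 peaks. The peaks within 1 kb had a median pileup of 12 tags, fold of 4.68 and locally expected pileup of 1.51 tags, against 11 tags, 5.08 and 1.12 tags in the 2460 peaks farther away.

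At the edge of the rule itself, the 10 peaks nearest to overlap had gaps of 0 to 6 bp, pileups of 7 to 19 tags and folds of 3.40 to 6.90. The 10 overlapping peaks with the shortest shared stretch, 1 to 9 bp, had pileups of 8 to 17 tags and folds of 3.14 to 6.25. Several on each side stood beside tall MEIS2 peaks. At chr2:150441448-150441696, in Zfp442, a pileup of 16 tags stood 2 bp from a MEIS2 peak of 83 tags in replicate 1, and at chr4:105298147-105298379, 65.6 kb from Plpp3, one of 16 tags shared 3 bp with a MEIS2 peak of 82 tags in replicate 2.

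A second concentration stood about 5 kb from MEIS2 peaks. Gaps of 4.5 to 5.5 kb were held by 421 no-antibody-only peaks, 13.2% (12.1 to 14.4%), a distance range that holds 4.66% of the bases outside MEIS2 peaks. At 3.5 to 4.5 kb and 5.5 to 6.5 kb together there were 226 peaks, 7.08%, against 9.39% of bases. In bins of 500 bp the counts were 64 and 89 just below, 201 and 220 within, and 35 and 38 just above. Measured at summits, 403 (12.6%) lay at 4.5 to 5.5 kb. The range was chosen after these values were seen.

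The MEIS2 peaks at that distance were tall. The nearest MEIS2 peak had a median pileup of 41 tags (quartiles 15 and 74) at 4.5 to 5.5 kb, against 12 tags in the flanking ranges and 11 tags over all no-antibody-only peaks. The nearest peaks of both MEIS2 replicates were found at gaps within 300 bp of each other for 89.8% of the 421 (86.5 to 92.3%), against 60.6% (54.1 to 66.8%) in the flanking ranges. That MEIS2 peak itself overlapped another no-antibody peak for 121 of the 421, 28.7% (24.6 to 33.2%), against 7.96% (5.10 to 12.2%). In coordinates it lay on the lower side for 218 and on the higher side for 203.

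Split by the pileup of the nearest MEIS2 peak, 445 no-antibody-only peaks had one of more than 40 tags. Of these, 214, or 48.1% (43.5 to 52.7%), stood 4.5 to 5.5 kb from it. For the 2745 peaks with a lower neighbour it was 7.54% (6.61 to 8.59%). This split describes the same association again, and its cut of 40 tags lies just below the median of 41 tags given above. Pileups above 40 tags are uncommon, at 7.54% of the replicate 1 list and 6.06% of the replicate 2 list on chromosomes 1 to 19. Examples with the tallest neighbours were chr1:44698883-44699161, 5385 bp from a MEIS2 peak of 106 tags, chr4:90986017-90986332, 5283 bp from one of 106 tags, and chr7:58594855-58595135, 5385 bp from one of 106 tags. Each of these 3 had a pileup of 11 tags and a fold of 3.73 to 4.44.

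The no-antibody-only peaks at 4.5 to 5.5 kb were ordinary in height. Their median pileup was 12 tags and their median width 285 bp, against 11 tags and 272 bp in the flanking ranges, and 65.6% and 66.4% lay outside genes. Their locally expected pileup was higher, with a median of 1.93 tags against 1.29 tags. The file header gives 10000 bp as the range over which the caller estimates the local level. Whether that setting bears on the excess near 5 kb was not tested.

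The same spacing was present in other lists of these libraries. Successive peaks of the whole no-antibody list were 4.5 to 5.5 kb apart in 230 cases, against 34 at 3.5 to 4.5 kb and 84 at 5.5 to 6.5 kb. In the MEIS2 lists the counts at these ranges were 3166, 2592 and 2714 in replicate 1 and 3644, 2053 and 2760 in replicate 2. Among no-antibody peaks that overlapped MEIS2, taken by themselves, there were 101, 17 and 31. Among the no-antibody-only peaks by themselves there were 4, 2 and 6, too few to show an excess.

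**Figure D5:**
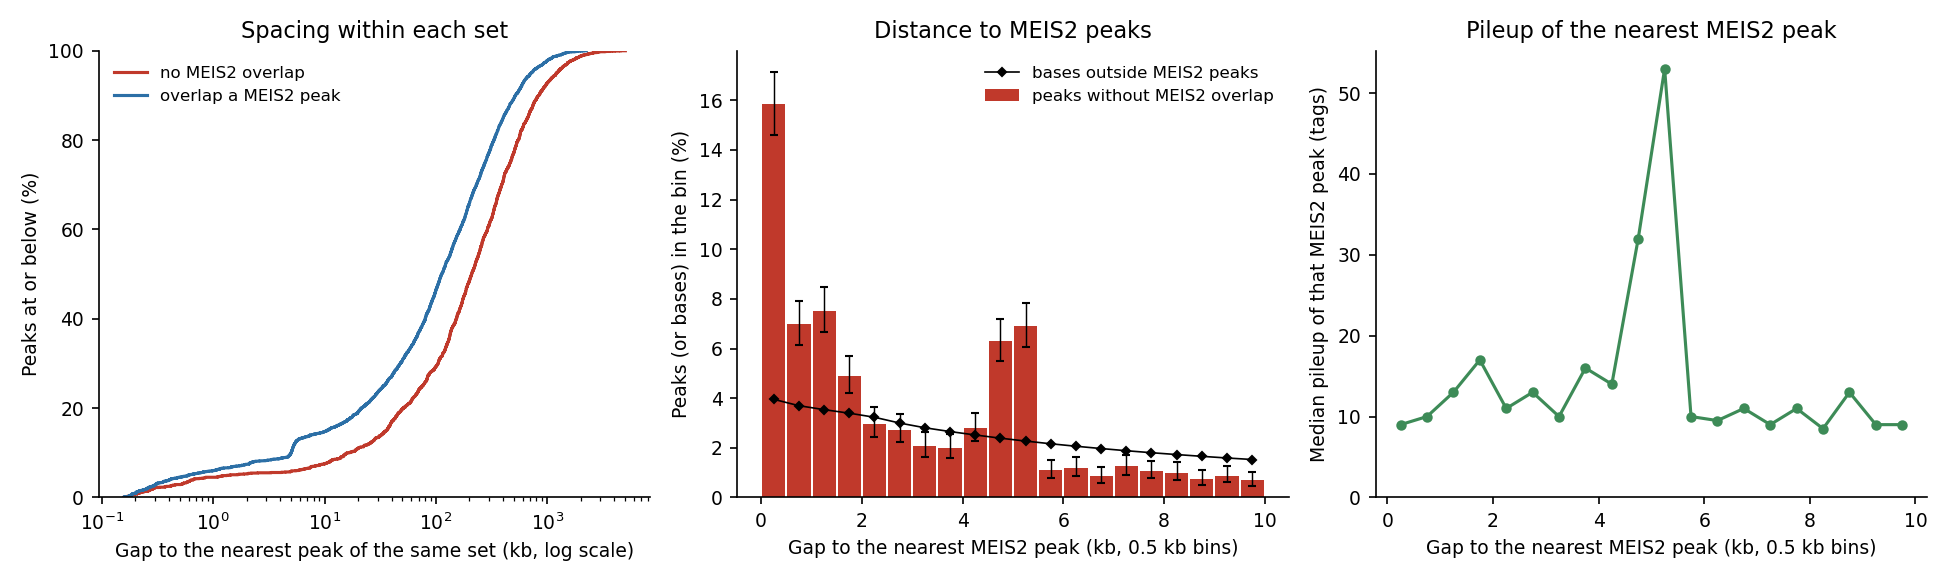
Left, cumulative percentage of peaks by gap to the nearest peak of the same set (kb, log scale). Middle, no-antibody peaks without MEIS2 overlap by gap to the nearest MEIS2 peak in 500 bp bins with 95% Wilson intervals, and the bases at each distance; the bins from 4.5 to 5.5 kb hold 201 and 220 peaks. Right, median pileup of that nearest MEIS2 peak in each bin, 32 and 53 tags in those bins.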

How the data were processed

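CUT&Tag peak lists of 1 no-antibody and 2 MEIS2 libraries were grouped by their labels. Per the file headers, the authors called peaks in each library with MACS 2.2.7.1 without a control, at a q cutoff of 0.05 and 1 tag per position, ignoring read pairs. The submitters' processing notes name MACS2 2.1.4, with Bowtie2 2.3.4, Trimmomatic, Picard and mm10. The deposited values are pileup, a signal not scaled to depth, fold enrichment, a ratio, and −log10 p-values and −log10 q-values. Low pileups limit precision to a few tags. Kept tags in the no-antibody library were fewest, so peaks below its call limit are not seen.

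Overlap meant at least 1 bp. Locally expected pileup was derived from pileup and fold. Genes came from RefSeq tables of GRCm38.p6. The gene table gives no strand or exons, so either gene end counted, and exon, intron and UTR were not told apart. The start-site table used has no entries for chromosome 18. Python 3.11.15, numpy 2.4.6, pandas 2.3.3, scipy 1.17.1 and matplotlib 3.10.9 were used, with overlaps tested on simulated data against bedtools 2.31.1. Shares carry 95% Wilson intervals. No significance test was run. The peaks, gene lists and measures were chosen with earlier results of these data known. Named items were the 10 peaks of highest fold and of highest pileup, the 5 widest, 10 on each side of the rule, the 6 largest groups within 10 kb, the 5 fullest 1 Mb windows, genes with a peak at an end, the 10 genes holding most with ties, up to 6 genes per list, and Meis2, Dlx1, Dlx2, Dlx5 and Dlx6. Some items that these choices pick are not reported here. Peaks of high locally expected pileup, noncoding hosts and examples near 5 kb were chosen after their values were seen. Alternatives were 50% reciprocal overlap, no MEIS2 peak within 1 kb, a −log10 q of at least 5 in either group, all sequences, other gene and joining distances, and each MEIS2 replicate left out.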

Additional observations from a re-analysis of the deposited data

Results flagged for a closer look

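Outside chromosomes 1 to 19, which the rule leaves out, 556 of 1268 no-antibody peaks shared no base with a MEIS2 peak, 43.8% (41.1 to 46.6%). They are given because these sequences enter no comparison above. Chromosome X had 407 of 986 (41.3%, 38.2 to 44.4%), chromosome Y had 137 of 213 (64.3%, 57.7 to 70.4%), and other sequences had 12 of 69 (17.4%, 10.2 to 28.0%). Median pileups were 11 tags on X, 10 on Y and 12 on the other sequences. The share on Y was above that of each of chromosomes 1 to 19, whose highest was 41.4%.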

How the results depend on the processing

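Of 69 alternatives computed, leaving aside 4 added ones given below, 33 left the value within its interval or within 1.5 times the count, and 36 moved it. Requiring 50% reciprocal overlap gave 5410 peaks, 62.4% of the list, median pileup 12, fold 5.00 and width 300 bp, and 16.04% within 10 kb of another. The share with MEIS2 within 1 kb was then 54.5%, which by construction includes the peaks that overlap a MEIS2 peak by less than 50%. Keeping no-antibody peaks with −log10 q of at least 5 gave 992, 25.6%, pileup 13, fold 6.21, width 303 bp, 2.82% at gene ends, 1.41% within 10 kb and 17.3% near MEIS2. Keeping such MEIS2 peaks only gave a share of 49.9%, fold 5.08, width 295 bp, 9.63% within 10 kb and 11.02% near MEIS2. Demanding no MEIS2 peak within 1 kb gave a share of 28.4% and fold 5.08, and the share near MEIS2 is then 0 by construction. All sequences gave 66.3% outside genes, with gene measures on chromosomes 1 to 19, X and Y. Gene ends within 500 bp and 2.5 kb held 0.721% and 6.33%. Protein-coding genes alone gave 0.502% at ends and 72.5% outside. Joining at 5 and 50 kb gave 5.80% and 19.8%, and counting any no-antibody neighbour gave 20%.

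Leaving out a MEIS2 replicate gave 3429 to 4392 peaks, shares of 39.6 to 50.7%, median pileup 11 both times, fold 5.03 to 5.11, width 289 to 296 bp, 2.05 to 2.22% at gene ends, 63.5 to 64.1% outside genes, 8.14 to 9.70% within 10 kb and 11.1 to 21.7% near MEIS2, the lower one without replicate 2. The share at 4.5 to 5.5 kb, with 4 alternatives chosen after seeing the data, of which 3 moved it, was 10.1% for no-antibody −log10 q of at least 5, 15.9% for MEIS2 −log10 q of at least 5, and 12.8 to 15.4% with a replicate left out. No paired analysis was possible because the no-antibody group is 1 library and no test gives the results.

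Depth limits the list: with a median of 11 tags at a summit and 1 tag kept per position, a missing MEIS2 call does not show a missing signal. Peak lists hold no values between peaks, so MEIS2 tags under the no-antibody-only peaks were not seen.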
